A study of Homo sapiens with 6 samples.

Results

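The CTRL class is a set of targeting guides in a pooled CRISPR knockout library, and its members were taken as the rows whose guide ID starts with HZD_CTRL_ and whose gene column is not dummyguide. The rule found 1536 of the 71626 guides in the count table and 73 of its 7093 genes, and it used no measured value. Guide abundance was counted by sequencing the guides in genomic DNA of HAP1, a human line of leukaemic origin with a nearly haploid genome. The groups were the guide library, HAP1 cells of the parental genotype and HAP1 cells of the SETD2-mutant genotype, with 2 samples each. SETD2 is the enzyme that trimethylates lysine 36 of histone H3. Both lines received guide virus at a multiplicity of infection of 0.7, were divided into replicates after infection, and grew under puromycin for 12 doublings. The replicates of a line therefore share a transduction, so p-values cover no more than the spread among these samples. The labels name a mutant genotype without a number of clones, and the origin of the library samples is not described.

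In a pooled knockout screen each cell carries a guide that directs a nuclease to cut a gene, and the guide is then counted as a barcode of that cell. A guide whose target is needed for growth becomes rarer, a guide whose loss speeds growth becomes more common, and a guide against a dispensable gene keeps its share. Control guides set the scale against which the rest are read, and such guides can cut a dispensable gene, cut a place outside genes, or match nothing in the genome. The labels do not say what CTRL, CTRLe or dummyguide stand for. The guide sequences were not analysed here, so guides are identified by ID and gene, and their cut sites are unknown.

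The 73 CTRL genes fall into separate kinds by their number of guides. There were 62 genes with 10 guides each, 620 guides in all, and 11 genes with more than 20 guides, 916 in all. The large genes were PPP2R5D, a regulatory subunit of protein phosphatase 2A, with 119 CTRL guides, MLLT1 with 109, FADS1, a fatty acid desaturase, with 103, IKZF2, the transcription factor Helios, with 98, FAM114A1 with 93, ZNF382 with 90, RNF14, a ubiquitin ligase, with 80, MAP3K7 with 77, KPNA2 with 63, CCDC77 with 60 and RPL39L with 24. In 10 of these 11 genes, all but RPL39L, 10 regular guides stood beside a long numbered series, whose IDs ran from 10001 to 10893. For MLLT1, MAP3K7 and FADS1 the regular guides belong to the EPI and SRF classes, 30 guides in all, and are no CTRL guides. They were kept in the gene results, which therefore rest on 119, 87 and 113 guides. Of the gene symbols, 68 were current in the RefSeq table of GRCh38.p14 and 5 matched by a synonym, among them FAM208A, now TASOR, and KIAA0101, now PCLAF. No CTRL gene, 0 of 73, was on the lists of genes for the cytosolic ribosome, proteasome, spliceosome, DNA replication, transcription, translation, mitosis, chaperones and nuclear transport, the secretory pathway, the DNA damage response, p53, growth signalling, blood surface markers, silent tissue-restricted genes or safe-harbour targets. Each list held 14 to 81 genes and need not cover every gene of its process. KPNA2, a nuclear import adaptor, and RPL39L, a close copy of a ribosomal protein, are examples of CTRL genes that the lists left out. Other CTRL genes may also belong to the listed processes.

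CTRL guides made up 1.73% and 1.72% of the counts in the library samples, 1.77% and 1.76% in parental cells and 1.79% in both SETD2-mutant samples. Total counts per sample ran from 25082426 to 38428425. The median count of a CTRL guide was 411 and 367 for the library pool, 397 and 345.5 for the parental line, and 261 and 351 for the mutant line. All 1536 guides passed the minimum mean library count of 30, with means from 36.5 to 2175. Guides with no count at all were 0 in both library samples, 1 in each parental sample, and 4 and 3 in the mutant samples. Between replicates the log2 value of a CTRL guide differed with an SD of 0.12 in the library, 0.39 in parental and 0.44 in SETD2-mutant cells, against 0.12, 0.39 and 0.45 over all guides. Differences beyond 1 on the log2 scale between replicates were seen in 0, 29 and 44 CTRL guides.

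As a class the CTRL guides stayed where the bulk of the library stayed. Counts were scaled so that the typical guide has no change, and the plain log2 change of CPM (with 0.5 added) had a median over CTRL guides of 0.00 in parental cells against library, 0.01 and −0.01 in the replicates. In SETD2-mutant cells the median was 0.03, with 0.03 in both replicates. The 456 guides of the CTRLe class had medians of −2.91 (parental) and −3.21 (mutant), and 90.1% of them lay below −1 in parental cells. Among CTRL guides that share was 11.8%, and among all guides outside the CTRL class and dummyguide it was 13.8%. The 100 dummyguide guides lay on the other side, with medians of 0.66 in parental cells (0.63 and 0.71 in the replicates) and 0.85 in SETD2-mutant cells (0.85 and 0.90). In each of the 4 cell samples the dummyguide median was above the CTRL median by more than the replicates of a line differed. With 2 samples a group, an exact two-sided permutation test of such a median cannot go below p = 0.333.

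The sign of a small CTRL change therefore depends on the zero of the scale. When samples were scaled on the dummyguide counts, all guides shifted by −0.78 in parental and −0.92 in SETD2-mutant cells, and by −0.15 between the lines. On that scale all 73 CTRL genes lay below 0 in both lines, where 35 and 39 did so on the main scale. Changes below are relative to the typical guide. For a comparison with library, positive gene means given below turn negative on the dummyguide scale, and the values are printed for the genes called enriched. Their enriched calls rest on ranks of guides and were kept on that scale.

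The comparison of parental cells with library shows which CTRL genes these cells held less or more of than the library. Most CTRL genes lay near 0: the mean change over guides ran from −1.42 to 0.74, with a median of 0.01 and an SD between genes of 0.43, and 62 of 73 genes lay within 0.5 of 0. Robust rank aggregation (RRA) of the edgeR guide ranks called 4 genes depleted at an adjusted p below 0.05, which is 5.48% of CTRL genes, where 9.9% of all 7090 genes tested were called. It called 2 genes enriched, 2.74% of CTRL genes beside 1.11% of all genes. The CTRL genes include 11 with more than 20 guides, and nearly all other genes have 10. Among genes with 10 guides, 1 of 62 CTRL genes was called depleted and 1 enriched, beside 685 and 76 of 6890 others. The depleted genes were KPNA2, ZNF382, PSMC3IP and CCDC77, and the enriched genes were MLLT1 and SLFN11. Of these 6 genes, 4 have large guide series.

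KPNA2 (chromosome 17, 68035735 to 68046854) encodes importin alpha 1, an adaptor that carries proteins with a nuclear localisation signal into the nucleus. Its mean over 63 guides was 12.0 and 11.7 CPM in the library pool, 6.31 and 6.55 CPM in the parental line, and 8.33 and 8.58 CPM in the mutant line. The parental samples were the lowest and the mutant samples lay between them and the library, with no overlap between groups. Against library KPNA2 fell in parental cells by 1.11 on the log2 scale (SE 0.113 over guides, 59 of 63 guides down, RRA adjusted p = 2.68e-09). The loss was spread along the whole guide set: the 10 regular guides had a mean of −0.87 and successive stretches of the numbered series had means of −0.84, −1.34 and −1.29. With the regular guides alone the change was not called, at an adjusted p of 0.190 by RRA, the highest of its 22 alternatives. The most reduced guide, HZD_CTRL_10294, had counts of 230 and 203 in the library pool, 9 and 27 in the parental line, and 72 and 162 in the mutant line. The highest, HZD_CTRL_10261, had 635 and 524 library counts, 892 and 651 parental counts, and 749 and 882 mutant counts.

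PSMC3IP (chromosome 17, 42572310 to 42577831) encodes HOP2, a cofactor of strand exchange in homologous recombination, and it was the 10-guide gene called depleted. Its mean was 13.0 and 12.6 CPM in the library pool, 7.21 and 6.86 CPM in the parental line, and 8.11 and 8.07 CPM in the mutant line. It fell by 1.00 in parental cells (SE 0.197, 10 of 10 guides down, RRA adjusted p = 0.0176). The guides ranged widely all the same: HZD_CTRL_06568 went from 628 and 535 counts to 140 and 91, a log2 change of −2.29, and HZD_CTRL_06569 from 586 and 536 to 506 and 541, a change of −0.05. In SETD2-mutant cells the change was −0.76 (SE 0.157, 10 of 10 guides down) and was not called, with an adjusted p of 0.65 by RRA. The call in parental cells was lost at a rank share limit of 0.1, with an adjusted p of 1, and with dummyguide scaling (adjusted p = 0.186), and ranged down to 2.1e-06 by other tools.

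ZNF382 (chromosome 19, 36605313 to 36634114) encodes a KRAB zinc finger protein, and its depletion came from some guides and not others. Its mean over 90 guides was 12.5 and 12.2 CPM in the library pool, 9.09 and 9.29 CPM in the parental line, and 10.3 and 10.3 CPM in the mutant line. The mean change in parental cells was −0.78 (SE 0.142, 62 of 90 guides down, RRA adjusted p = 0.00307), the median −0.49, and the SD over guides 1.35, among the 5 largest of the class. HZD_CTRL_10175 had library counts of 499 and 413, parental counts of 0 and 5, and mutant counts of 6 and 7. HZD_CTRL_10176 had counts of 242 and 232 in the library pool, 6 and 3 in the parental line, and 0 and 0 in the mutant line. There it was at least 61.8-fold lower than in library (floor of 3 counts in each mutant sample). HZD_CTRL_10234 had 433 and 400 library counts, 3 and 12 parental counts, and 5 and 0 mutant counts. HZD_CTRL_11975, the highest in parental cells, was a regular guide with library counts of 636 and 469, parental counts of 968 and 810, and mutant counts of 373 and 859. The regular guides had a mean change of −0.34 (SE 0.231) and were not called on their own, with an adjusted p of 1 by RRA, the highest of its 22 alternatives. The numbered series had a mean of −0.83 (SE 0.157), and the call was also lost at a rank share limit of 0.1.

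CCDC77 (chromosome 12, 389347 to 442642), which encodes a coiled-coil protein, had the smallest change among the depleted genes. Its mean was 11.6 and 11.3 CPM in the library pool, 9.82 and 9.99 CPM in the parental line, and 11.5 and 11.1 CPM in the mutant line, so that the mutant samples overlapped the library. It fell by 0.43 in parental cells (SE 0.0993, 40 of 60 guides down, RRA adjusted p = 0.0197). Along the numbered series the guides 10001 to 10019 had a mean of −0.09 (SE 0.177), the guides 10021 to 10038 a mean of −0.72 (SE 0.159), and the guides 10039 to 10056 a mean of −0.68 (SE 0.221). This call was lost in 8 of 22 alternatives, among them without either library sample (adjusted p = 0.0764 and 0.0720) and without either SETD2-mutant sample (0.159 and 0.169), where the highest adjusted p of any alternative was 1. HZD_CTRL_10029 was the most reduced guide, with counts of 499 and 485 in the library pool, 97 and 103 in the parental line, and 104 and 123 in the mutant line.

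MLLT1 (chromosome 19, 6210381 to 6279975) encodes ENL, a reader of acylated histones in elongation complexes. It was the CTRL gene with the lowest p on the enriched side in both lines. Its mean rise was not the largest: among uncalled 10-guide genes, C7orf60 reached 0.45 in parental cells and ZNF516 0.57 in SETD2-mutant cells, above MLLT1. Its mean over 119 guides was 12.1 and 12.1 CPM in the library pool, 17.4 and 17.2 CPM in the parental line, and 18.1 and 18.1 CPM in the mutant line. It rose by 0.32 in parental cells (SE 0.0674, 87 of 119 guides up, RRA adjusted p = 1.6e-05) and by 0.46 in SETD2-mutant cells (SE 0.0749, 99 of 119 guides up, RRA adjusted p = 8.15e-12), while on the dummyguide scale these changes were −0.45 and −0.46. Between the lines the difference was 0.14, or −0.01 on the dummyguide scale, and it was not called (RRA adjusted p = 0.306, 0.00795 to 0.963 over its alternatives). The 10 EPI guides, at 1162 counts in the library median, had a mean of 0.30 (SE 0.168) in parental and 0.49 (SE 0.138) in SETD2-mutant cells. The CTRL series, at 365.5 counts, had a mean of 0.33 (SE 0.0721) and 0.46 (SE 0.0809), close to that of the EPI guides. The EPI guides alone were not called in parental cells (RRA adjusted p = 0.312, the highest of the 22 alternatives). Single guides went far in each direction. HZD_CTRL_10140 had 590 and 566 library counts, 4818 and 4336 parental counts, and 727 and 785 mutant counts, a parental change of 3.03 (adjusted p = 9.99e-06 by edgeR). HZD_CTRL_10121 had library counts of 379 and 385, parental counts of 25 and 28, and mutant counts of 7 and 2.

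SLFN11 (chromosome 17, 35350305 to 35373621) encodes a factor that blocks stressed replication forks and sensitises cells to DNA-damaging drugs, and its rise was seen in parental cells. Its mean over 10 guides was 12.1 and 12.3 CPM in the library pool, 20.5 and 20.6 CPM in the parental line, and 14.3 and 12.8 CPM in the mutant line. It rose in parental cells by 0.74 (SE 0.0927, 10 of 10 guides up, RRA adjusted p = 0.0115), a change of −0.04 on the dummyguide scale. The guides agreed closely, from 0.24 for HZD_CTRL_09802 to 1.09 for HZD_CTRL_09800. In SETD2-mutant cells the change was 0.04 (SE 0.116, 6 of 10 guides up), or −0.88 on the dummyguide scale, and between the lines it was −0.70 (SE 0.134, 10 of 10 guides down). That difference was not called by RRA (adjusted p = 0.123), with values of 0.00017 to 0.438 over its alternatives, and it was called without SETD2-mutant replicate 1 (adjusted p = 0.0127). The parental call in turn was lost without parental replicate 1 (adjusted p = 0.513) and without parental replicate 2 (0.260), with a highest value of 1 over its alternatives.

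In SETD2-mutant cells against library 1 CTRL gene was called depleted, 1.37% beside 9.04% of all genes, and 1 enriched, 1.37% beside 1.11%. These were KPNA2, which fell by 0.72 (SE 0.114, 48 of 63 guides down, RRA adjusted p = 0.0421), and MLLT1. The KPNA2 call was lost in 8 of 22 alternatives, among them without parental replicate 1, parental replicate 2, SETD2-mutant replicate 1 or library replicate 1 (adjusted p = 0.0904, 0.103, 0.0785 and 0.0690), with a highest value of 1. Among genes with 10 guides, RRA called 0 of 62 CTRL genes in either direction, beside 627 depleted and 77 enriched of 6890 others. Gene means ran from −1.65 to 0.57, and 56 of 73 genes lay within 0.5 of 0.

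The comparison of SETD2-mutant with parental cells addresses which gene losses affect the lines differently. CTRL genes differed little: the SD between genes was 0.25, where it was 0.34 over all genes tested, and 71 of 73 genes lay within 0.5 of 0, 97.3% beside 90.6% of all genes. No CTRL gene, 0 of 73, was called depleted by RRA, beside 1.28% of all genes. At an unadjusted RRA p under 0.05 there were 3, which is 4.11% beside 7.53% of all genes. Limma on gene means called 14, and the share of all genes it called is not given here. Among genes with 10 guides, RRA called 0 of 62 CTRL genes in either direction, beside 90 depleted and 72 enriched of 6890 others. KPNA2 was called enriched, 1 gene or 1.37%, beside 1.03% of all genes. It rose by 0.39 relative to parental cells (SE 0.093, 48 of 63 guides up, RRA adjusted p = 0.0105), which means a smaller loss in the mutant. The difference was largest in the regular guides, with a mean of 0.71 (SE 0.12), and 0.33 (SE 0.107) in the numbered series. It was not called without parental replicate 2 (adjusted p = 0.0501), without SETD2-mutant replicate 2 (0.119) or with either guide set alone (0.0892 and 0.302), and 0.302 was the highest value over its 22 alternatives. HOXC9, a homeobox transcription factor chosen here after its values were seen, was nearest to a depleted call, at −0.83 (SE 0.31, 8 of 10 guides down, RRA adjusted p = 0.0510).

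At the level of guides the CTRL class was far from flat. In parental cells edgeR called 292 CTRL guides reduced, 19% of 1536, beside 21.1% of all 71470 guides tested, and 266 increased, 17.3% beside 18.9%. In SETD2-mutant cells 292 were reduced, 19% beside 23.7%, and 318 increased, 20.7% beside 22.2%. Between the lines 163 were lower in SETD2-mutant cells, 10.6% beside 12.8%, and 164 higher, 10.7% beside 11.5%. These shares lie near the background of all guides, and the counts depend on the library samples: without library replicate 1 the parental counts were 140 and 107, and without replicate 2 they were 141 and 101. On the dummyguide scale they were 995 and 20 in parental and 1117 and 10 in mutant cells. That scale shifts all guides, by −0.78 and −0.92, and the share of all guides called on it is not given here. Large losses made up a smaller share than over all guides, with 41 CTRL guides below −2 in parental cells, 2.67% beside 6.2% of all guides.

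Called guides were scattered over nearly every gene, in the CTRL class as outside it. Of the 62 genes with 10 guides, 61 had at least 1 called guide in parental cells, 98.4% beside 98% of the 6890 other genes with 10 guides, and 27 had called guides in both directions, 43.5% beside 52.8%. In SETD2-mutant cells all 62 had a called guide, beside 99.2% of the other genes, and 36 had them in both directions, 58.1% beside 60.4%. The median over CTRL genes of the SD over guides was 0.60 in parental cells, beside 0.62 over all genes tested. The steadiest gene in parental cells was EPS15L1, an endocytic adaptor, with an SD of 0.21 over guides and a mean of 0.14. Next there were IFI16, a sensor of DNA, with 0.24 and 0.22, and ZNF470, a KRAB zinc finger gene, with 0.25 and 0.32. All 10 guides of ZNF470 were above 0, from 0.05 to 0.94, and RRA did not call the gene, while limma on gene means and summed counts did (adjusted p = 0.0312 and 0.0482, highest over all alternatives 1). On the dummyguide scale the parental means of EPS15L1, IFI16 and ZNF470 were −0.64, −0.56 and −0.46. In SETD2-mutant cells against library their SDs over guides were 0.359, 0.575 and 0.350, so IFI16 was less steady there.

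The 10 CTRL genes with the lowest means in parental cells were WDR26, TXN2, KPNA2, LARP6, PSMC3IP, KIAA0101, HNRNPD, ZNF382, GMNN and HDGFRP3. LARP6, KIAA0101 and HDGFRP3 are the 3 CTRL genes on chromosome 15, a set picked out after its values were seen. LARP6 (70829130 to 70854157), an RNA-binding protein, had a mean of 9.69 and 9.15 CPM in the library pool, 5.47 and 5.38 CPM in the parental line, and 3.81 and 5.98 CPM in the mutant line. KIAA0101 (PCLAF, 64364304 to 64387687), a factor that binds the sliding clamp PCNA, had 11.3 and 11.6 CPM in the library pool, 7.41 and 6.94 CPM in the parental line, and 10.2 and 9.67 CPM in the mutant line. HDGFRP3 (HDGFL3, 83112738 to 83207823), a relative of hepatoma-derived growth factor, had 10.5 and 10.7 CPM in the library pool, 8.91 and 6.52 CPM in the parental line, and 7.92 and 7.62 CPM in the mutant line. All 3 lay below the library in every cell sample, with parental changes of −1.02 (SE 0.332), −0.78 (SE 0.191) and −0.63 (SE 0.198), and they were not called by RRA (adjusted p of 1, 0.102 and 1). The 66 other genes tested that lie between them had a median of −0.55 (parental) and −0.84 (mutant), with 63 of 66 below 0 in parental cells, where the 132 other genes of chromosome 15 had medians of −0.06 and −0.13. In SETD2-mutant cells LARP6, KIAA0101 and HDGFRP3 changed by −1.49, −0.33 and −0.53. Between the lines they changed by −0.47, 0.45 and 0.095, where the 66 other genes had a median of −0.32. HAP1 is known to carry an extra copy of a segment of chromosome 15, and its part in these values was not tested.

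WDR26 (chromosome 1, 224385146 to 224434797), a subunit of the CTLH ubiquitin ligase, had the largest SD over guides among CTRL genes in parental cells against library, 1.97, and the lowest mean there, −1.42 (SE 0.622). RRA did not call it (adjusted p = 0.163), while limma on gene means and summed counts did (lowest adjusted p 1.66e-06, highest over all alternatives 0.942). In SETD2-mutant cells its mean was −1.46 and its SD 2.15, where RCAN1 had the largest SD, 2.61, and TXN2 the lowest mean, −1.65. HZD_CTRL_11439 had counts of 507 and 491 in the library pool, 11 and 4 in the parental line, and 12 and 14 in the mutant line. HZD_CTRL_11440 had 229 and 183 library counts, 15 and 18 parental counts, and 0 and 6 mutant counts. HZD_CTRL_11445 went the other way, with library counts of 229 and 246, parental counts of 364 and 418, and mutant counts of 233 and 270. Of the other 7 guides, 4 lay between −1.42 and −1.02 and 3 between −0.34 and −0.22.

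TXN2 (chromosome 22, 36467046 to 36481640), the mitochondrial thioredoxin, had a mean of 8.76 and 8.69 CPM in the library pool, 4.64 and 4.74 CPM in the parental line, and 4.05 and 4.25 CPM in the mutant line. The cell samples lay below the library without overlap. Its change was −1.36 in parental cells (SE 0.404, 9 of 10 guides down, RRA adjusted p = 0.0713) and −1.65 in SETD2-mutant cells (SE 0.488, 8 of 10 guides down). RRA did not call it in parental cells, while limma on gene means did (adjusted p = 8.69e-06), as did summed counts (1.32e-05) and RRA with the replicate number as a block (0.0406), with 1 the highest over its alternatives. Its guides split into 6 between −3.13 and −1.58 and 4 between −0.50 and 0.78. HZD_CTRL_11235, the exception above 0, had counts of 275 and 255 in the library pool, 454 and 426 in the parental line, and 268 and 209 in the mutant line.

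RPL39L (chromosome 3, 187120948 to 187139496) encodes a close copy of the ribosomal protein RPL39, and whether its guides also match that gene was not tested. Its guides had an SD of 1.17 around a mean of −0.29 (SE 0.24, 12 of 24 guides down). Means differed along the ID order: guides 8097 to 8104 had a mean of −0.01 (SE 0.405), guides 8105 to 8112 a mean of 0.34 (SE 0.128), and guides 8113 to 8122 a mean of −1.22 (SE 0.442). In SETD2-mutant cells the same stretches had means of 0.18, 0.47 and −1.63. The first stretch also held reduced guides, HZD_CTRL_08101 at −1.77 and HZD_CTRL_08103 at −1.79 in parental cells, whose counts are given further on. HZD_CTRL_08117 had 392 and 329 library counts, 40 and 59 parental counts, and 25 and 0 mutant counts. HZD_CTRL_08100 had library counts of 554 and 444, parental counts of 1179 and 923, and mutant counts of 531 and 807.

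MAP3K7 (chromosome 6, 90513579 to 90587072), the kinase TAK1, shows a gene whose spread came from a pair of guides. The median over its 87 guides was −0.11 (parental) and −0.14 (mutant), and RRA did not call it in either line, while limma on gene means and summed counts per gene did (lowest adjusted p 0.000879 and 0.000681, highest over all alternatives 1). HZD_CTRL_10523 had counts of 563 and 456 in the library pool, 1 and 1 in the parental line, and 0 and 1 in the mutant line. Its ratio of parental to library was 0.00202, with a 95% counting interval of 0.000245 to 0.00733. HZD_CTRL_10522, the next number, had 257 and 214 library counts, 5 and 0 parental counts, and 0 and 1 mutant counts. The 10 EPI guides of MAP3K7, at a library median of 1891 counts, had a mean of −0.14 (SE 0.251).

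Large losses and gains of guides were also seen in genes outside the rule for named genes, and the following were chosen after their values were seen. HZD_CTRL_06718 of RCAN1, a regulator of calcineurin, had library counts of 329 and 299, parental counts of 46 and 40, and mutant counts of 1 and 1, while 6 of the 10 RCAN1 guides were above 0 in parental cells. HZD_CTRL_03314 of HNRNPD, an RNA-binding protein, had counts of 269 and 249 in the library pool, 74 and 81 in the parental line, and 4 and 3 in the mutant line; 9 of its 10 guides were below 0 in parental cells. HZD_CTRL_10645 of RNF14 had 402 and 371 library counts, 7 and 4 parental counts, and 49 and 31 mutant counts; 45 of the 80 RNF14 guides were below 0 in parental cells. On the gaining side, HZD_CTRL_11202 of TUBB4A, a beta-tubulin, had library counts of 388 and 390, parental counts of 1682 and 1926, and mutant counts of 383 and 378. HZD_CTRL_10359 of FADS1 had counts of 585 and 497 in the library pool, 2362 and 2667 in the parental line, and 517 and 556 in the mutant line. Scaled for depth, HZD_CTRL_11202 stood at 10 and 11.1 CPM in the library pool, 44.4 and 57.5 CPM in the parental line, and 15.3 and 11.2 CPM in the mutant line. HZD_CTRL_10359 stood at 15.1 and 14.2, 62.3 and 79.6, and 20.6 and 16.5 CPM. Both parental replicates were far above the library, and the mutant replicates lay slightly above it.

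Among 10-guide genes, a called guide that opposed at least 8 others of its gene was seen 5 times in parental cells, 11 times in SETD2-mutant cells and 3 times between the lines. These are 0.806%, 1.77% and 0.484% of 620 guides, beside 1.18%, 1.48% and 0.586% of the guides of the other 10-guide genes. In parental cells HZD_CTRL_11938 of ZNF266 had 583 and 484 library counts, 199 and 153 parental counts, and 201 and 285 mutant counts, while 8 of its 10 guides were above 0. HZD_CTRL_01910 of CSRP2 had library counts of 455 and 443, parental counts of 298 and 267, and mutant counts of 215 and 296, while 9 of 10 guides were above 0.

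Some CTRL rows share an ID or have nearly equal counts. There were 20 guide IDs that named a guide of STMN1 or TCEANC2 and also a guide of ZNF382 or FADS1, 40 rows in all; 0 of these shared their counts, so they were kept as separate guides. Among 44071 pairs of CTRL guides within a gene, 18 had counts that differed by less than counting error, with a chi-square under 6 on 6 degrees of freedom and over 600 counts in the pair. Of the pairs with numbers at most 2 apart 0.222% (6 of 2700) met this, and of the pairs further apart 0.029%. HZD_CTRL_08101 and HZD_CTRL_08103 of RPL39L had 509 and 453 against 519 and 456 counts in the library, 163 and 111 against 164 and 110 in parental cells, and 178 and 185 against 180 and 185 in SETD2-mutant cells (chi-square 0.126). HZD_CTRL_10154 and HZD_CTRL_10155 of MLLT1 had 904 and 842 against 881 and 826 counts in the library, 1481 and 1344 against 1450 and 1339 in parental cells, and 1282 and 1792 against 1270 and 1776 in SETD2-mutant cells (chi-square 0.915). Whether such rows share reads was not tested; with 1 row of each of the 6 close pairs removed, the counts of called CTRL genes were unchanged in all 3 comparisons.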

How the data were processed

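The authors deposited raw counts per guide, whole numbers with no scaling. MAGeCK and the build hg38 are named per the submitters' processing notes, without settings. All columns matched a sample by name, with 2 samples per group.

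The 71470 guides whose library samples averaged at least 30 counts entered quasi-likelihood models of edgeR 4.0.16 (R 4.3.3, TMM scaling, glmQLFit robust, glmQLFTest) over the 6 samples by group, without the 100 dummyguide rows. CPM values are counts divided by the scaled library size. Genes with 3 or more guides (7090) were tested by robust rank aggregation of the guide ranks, rebuilt with exact p-values and a rank share limit of 0.25. P-values were adjusted by Benjamini-Hochberg over all guides, or over all genes in each direction. A gene's change is the average edgeR log2 fold change of its guides, with the SE over guides, which are not replicates. The scripts were tested on simulated counts.

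The members, the gene lists and the alternatives were chosen with earlier results of these data known. Called genes of lowest p were named (up to 12 depleted and 8 enriched), with the 5 largest and 3 smallest SDs over guides, their extreme guides, and called guides opposing 8 others of their gene. That last part was applied to 10-guide genes only, a departure made because large genes hold many such guides. Alternatives covered scaling, filter, tool, guide sets and each sample left out, and 3 were added after seeing the data (regular guides only, numbered series only, near-identical rows counted as 1). Intervals and floors cover counting error only. Coordinates are those of RefSeq genes on GRCh38.p14.

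Replicate numbers are shared between groups, and the labels do not say whether they pair the samples. Correlations of replicate differences between groups were −0.008, −0.00408 and −0.0014. They show no shared differences between guides but cannot show how the replicates were handled, and the main models used no pairing.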

Additional observations from a re-analysis of the deposited data

Results flagged for a closer look

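The difference between the lines in KPNA2 stood out because its change from library was tested to differ: its guides were higher in SETD2-mutant than in parental cells by 0.391 (adjusted p = 0.0105 by edgeR and RRA, 48 of 63 guides up). Among 1536 single CTRL guides, 163 were lower and 164 were higher in SETD2-mutant than in parental cells by edgeR at an adjusted p below 0.05. These are 10.6% and 10.7%, beside 12.8% and 11.5% of all guides tested, so the class does not stand out here. Groups of 2 samples were too small to look for a sample far from the others.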

How the results depend on the processing

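Called CTRL genes are few, so a change of 1 gene moves a count, and a guide that was not called is not shown to be unchanged. Counts below give depleted before enriched. DESeq2 size factors and the DESeq2 test both put the median change of CTRL guides against library at 0.034 in SETD2-mutant cells (0.048 in the main analysis), and scaling on library totals put it at −0.015 in parental cells (0.011). Dummyguide scaling gave 995 and 20 CTRL guides in parental cells (median −0.767) and 1117 and 10 in SETD2-mutant cells (median −0.876), and between the lines 103 enriched guides and a median of −0.118. This scaling shifts all guides, CTRL or not, and the share of all guides called on it is not given here. It left 2 depleted genes in parental and 0 in SETD2-mutant cells, and turned MLLT1 to −0.451 and −0.459 and SLFN11 to −0.041. RRA works on ranks and still called MLLT1 enriched in parental and SETD2-mutant cells (adjusted p = 0.000295 and 3.27e-08). SLFN11 also stayed called enriched in parental cells (RRA adjusted p = 0.0278). The DESeq2 test called 271 guides enriched between the lines. With only the groups compared in the fit, 108 and 108 guides and 1 depleted gene were called between the lines, and 0 genes were depleted in SETD2-mutant cells. Keeping repeated IDs in 1 row gave 2 depleted genes there. An RRA rank share limit of 0.1 left 1 depleted and 1 enriched gene in parental cells, 0 depleted in SETD2-mutant cells and 0 enriched between the lines. Limma on gene means called 23 and 20 genes in parental cells, 28 and 17 in SETD2-mutant cells, and 14 and 11 between the lines. For edgeR on counts summed per gene the counts were 21 and 22, 23 and 18, and 12 and 20. The shares of all genes called in these ways are not given here, so the counts show nothing particular to CTRL genes. Regular guides alone left 1 and 1 in parental cells, 0 depleted in SETD2-mutant cells and 0 enriched between the lines, where the numbered series alone also left 0. The causes of these shifts were not tested.

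With each sample left out in turn, called guides ran from 140 to 355 depleted and 101 to 330 enriched in parental cells, 150 to 318 and 136 to 354 in SETD2-mutant cells, and 105 to 169 and 101 to 177 between the lines. Medians of CTRL guides ran from −0.006 to 0.022, 0.026 to 0.058 and 0.017 to 0.051. Called genes ran from 3 to 4 and 1 to 2, 0 to 1 depleted and 1 to 1 enriched, and 0 to 1 and 0 to 1. With the replicate number as a block, 154 and 154 guides, 0 depleted and 1 enriched gene were called between the lines, 5 and 2 genes in parental cells, where TXN2 was added, and 1 and 1 in SETD2-mutant cells. The block changed no other call of a named gene. Filters of no minimum and of 100 library counts, CTRL-class guides only and near-identical rows counted as 1 kept every count of called genes and guides within 1.5 times.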
